A study of Arabidopsis thaliana with 8 samples.

Results

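The H2B-GFP peaks that lie around the centromeres of Arabidopsis thaliana are described here. They are the unique intervals of the H2B-GFP peak lists, replicates 1 and 2, whose midpoint falls within 3 Mb of a centromere midpoint, taken at 15.1, 3.6, 13.7, 4.0 and 11.7 Mb on chromosomes 1 to 5. Lines of a list with the same chromosome, start and end were joined into 1 interval. The rule left 703 peaks of 9969 nuclear H2B-GFP peaks, 110 of 1361 in replicate 1 and 593 of 8608 in replicate 2. Position alone chose them among the called peaks, so their genes and agreement between lists were free to vary. Fold and significance could vary only above the floor of peak calling (lowest −log10 q of these peaks 1.31 in each list).

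The study pulled down GFP fusions from the chromatin of whole seedlings, harvested 7 days after germination, on GFP-Trap agarose, and sequenced the DNA that came with them (ChIP-seq). In the seedlings described here the core histone H2B carried the tag in the Col-0 background, expressed from the p35S promoter (Col-0/p35S::AtH2B-GFP). The other line was gbpl3-5/pAtGBPL3::AtGBPL3genomic-GFP (comp2), in which the mutant gbpl3-5 carries a tagged genomic copy of AtGBPL3, the gene of a large GTPase, under the AtGBPL3 promoter. Each fusion had 2 pulldown replicates with a peak list each; input libraries were not used here. The labels name no separate cultures for the replicates, so differences between the lists may be technical. As a model the H2B-GFP line has limits: 35S is a strong viral promoter active in most tissues, the plant's own untagged H2B genes remain, and whole seedlings mix many cell types.

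Centromeres of this plant consist of long satellite arrays, and the pericentromeres beside them are rich in transposons and their remains, poor in genes and packed as heterochromatin. H2B is part of every nucleosome, with the partners H2A, H3 and H4. A peak of H2B-GFP is therefore a place that stands out above the background used in peak calling. Chromatin without a peak is not chromatin without H2B. No sequence is shown, since no genome of the files' build was used here.

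Around the centromeres H2B-GFP peaks were sparse in both lists. The pericentromeres held 8.08% of the replicate 1 peaks (Wilson 95% interval 6.75 to 9.65) and 6.89% of those in replicate 2 (6.37 to 7.44), on 30 Mb or 25.2% of the nuclear genome up to the last annotated feature of each chromosome. That came to 3.67 peaks per Mb in replicate 1 and 19.8 in replicate 2, against 14.03 and 89.9 per Mb in the arms, so the arms were 3.83 and 4.55 times denser. In the GBPL3-GFP lists 72 of 87 and 59 of 81 peaks were pericentromeric. The mean share was 7.49% in the H2B lists and 77.8% in the GBPL3 lists, and an exact permutation test of the 4 lists gave p = 0.33 (2-sided), the smallest it can give. The Wilson intervals here and below cover counting error only.

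Medians of size and strength lay close to those of the arms. The fold is the authors' enrichment of a peak over the background used in peak calling for its own list. Its median was 1.89 in replicate 1 (lowest 1.17, highest 2.92, SD 0.297 over 110 peaks). In replicate 2 it was 1.77 (1.32 to 3.27, SD 0.226 over 593). In the arms the medians were 1.88 and 1.75. Median widths were 360.5 and 411 bp around the centromeres and 358 and 437 bp in the arms, and the pericentromeric peaks covered 48.1 and 301 kb. Several summits were called in 21 of the 110 and 142 of the 593 intervals, 19.1% and 23.9%. Over all nuclear peaks of the lists the shares were 16.2% and 26.5%. No test was run on these values, since peaks of 1 library are not replicates. At the edge of the rule the outermost peaks inside lay 2955 and 2993 kb from a midpoint with folds of 1.79 and 1.91, and the first outside lay at 3006 and 3005 kb with folds of 1.96 and 1.57 in replicates 1 and 2.

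**Figure D1:**
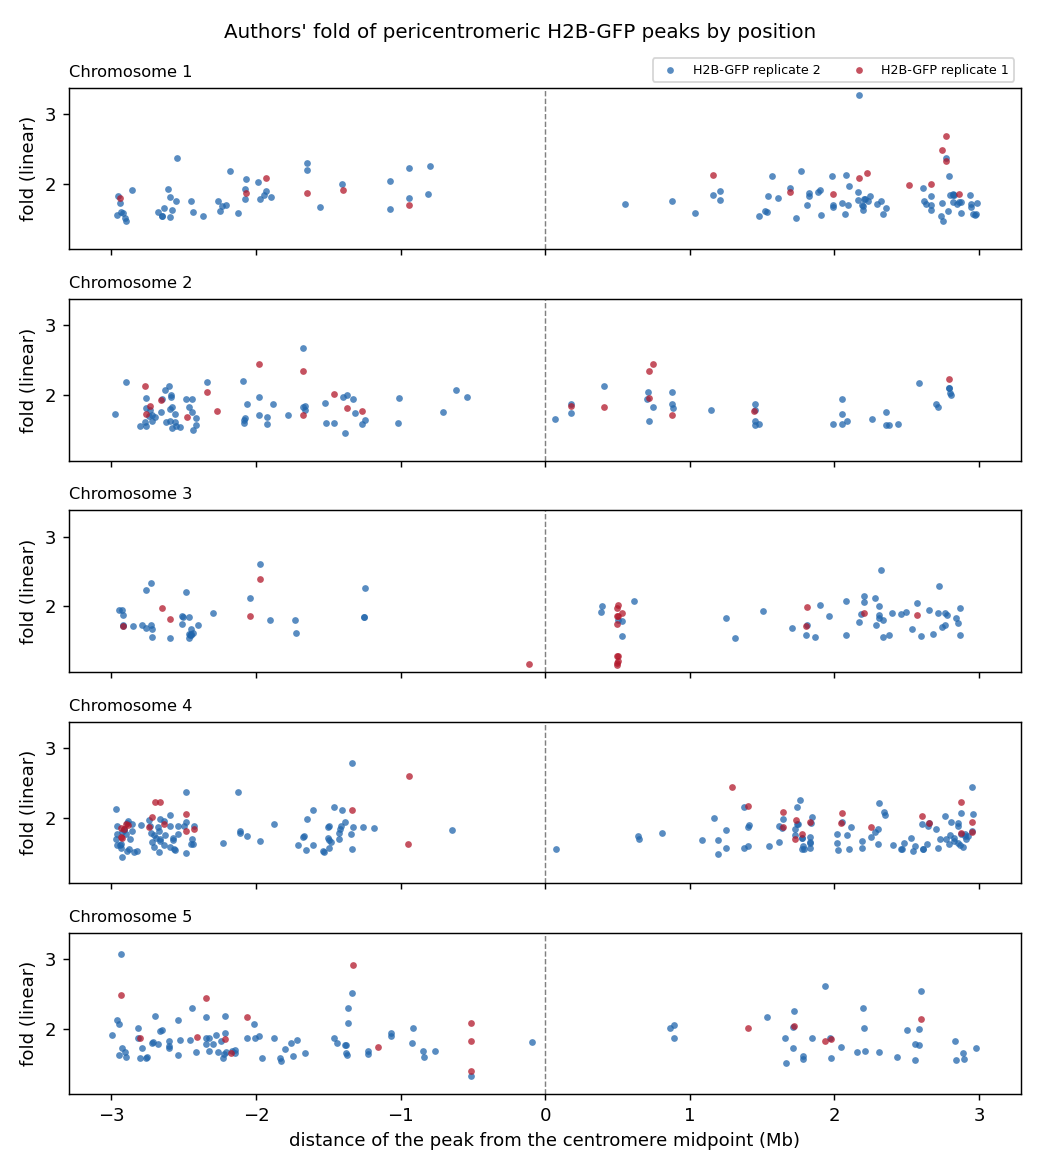
Each point is a pericentromeric H2B-GFP peak, with its distance from the centromere midpoint of its chromosome (Mb, x axis) and the authors' fold (linear, y axis), replicate 1 in red and replicate 2 in blue. Peaks thin out towards the midpoints, and the tight red column on chromosome 3 about 0.5 Mb to the right holds the replicate 1 peaks at the ribosomal RNA genes.

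The chromosomes were unequal, and chromosome 4 led in both lists. It held 34 of the 110 peaks in replicate 1 and 182 of the 593 in replicate 2, which was 15.5% and 13.5% of all peaks called on that chromosome. Chromosome 2 followed in that measure with 21 and 99 peaks (10.0% and 8.07%). Chromosomes 1, 3 and 5 had 17, 21 and 17 peaks in replicate 1 and 116, 84 and 112 in replicate 2. These were between 4.62% and 7.07% of the peaks of their chromosome. Every window has the same length whatever the length of its chromosome. The share therefore also depends on how much of a chromosome its window takes.

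The windows also differ in genes. Chromosome 4 has 723 protein-coding genes in its window, chromosome 2 has 708, and chromosomes 1, 5 and 3 have 638, 595 and 517 in the gene table. Per 100 of these genes, 18.4 held a replicate 2 summit on chromosome 4, and on chromosomes 5, 1, 3 and 2 the values were 12.8, 12.1, 11.6 and 8.90. In replicate 1 chromosome 4 was again highest at 2.90, followed by chromosome 2 at 1.69, chromosome 3 at 1.16, chromosome 1 at 0.940 and chromosome 5 at 0.840. Chromosome 2 thus stood second by replicate 1 and last by replicate 2. The sides of a centromere differed in the same direction as their genes on 4 chromosomes in both lists, chromosome 4 being the exception: on chromosome 2 the left side had 65 of 99 replicate 2 peaks and 487 of 708 genes, on chromosome 5 the left side had 79 of 112 peaks and 369 of 595 genes, and on chromosomes 1 and 3 the right sides had 71 of 116 and 48 of 84 peaks beside 359 of 638 and 294 of 517 genes. Replicate 1 had 6 peaks left and 11 right on chromosome 1, 13 and 8 on chromosome 2, 6 and 15 on chromosome 3, and 12 and 5 on chromosome 5. Without the peaks over GBPL3-GFP chromosome 3 had 5 on each side in replicate 1, so its direction there rests on those peaks. On chromosome 4 the left side had 92 of 182 replicate 2 peaks and 333 of 723 genes.

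Towards the midpoint the peaks became rarer. In replicate 2 the number per Mb was 45.8 between 2.5 and 3 Mb from a midpoint, 29.4 in the next step of 0.5 Mb inwards, then 21.2, 14 and 6.6, and 1.6 in the innermost. Replicate 1 had 7.2 per Mb in the outermost step and 3.8, 3.8, 2.4, 3.0 and 1.8 in those further in. Protein-coding genes fell over the same steps from 208.6 to 38.4 per Mb, while pseudogenes rose from 45.2 to 176.2 per Mb at 0.5 to 1 Mb and 162.2 in the innermost.

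Counted per gene, replicate 2 still declined inwards. Of 100 protein-coding genes 16.0 held a summit in the outermost step, then 13.8, 11.6, 10.6 and 9.79, and 3.13 in the innermost, where 6 of 192 genes were hit. Replicate 1 showed no such run, with 2.30 in the outermost step and values from 0.777 to 2.58 elsewhere. Innermost counts were small, with 9 peaks in replicate 1 and 8 in replicate 2. A share of 21.8% of the replicate 1 peaks lay within 1 Mb of a midpoint (24 of 110) against 6.91% in replicate 2 (41 of 593). Of those 24, 16 overlapped a peak of GBPL3-GFP and 8 did not.

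**Figure D2:**
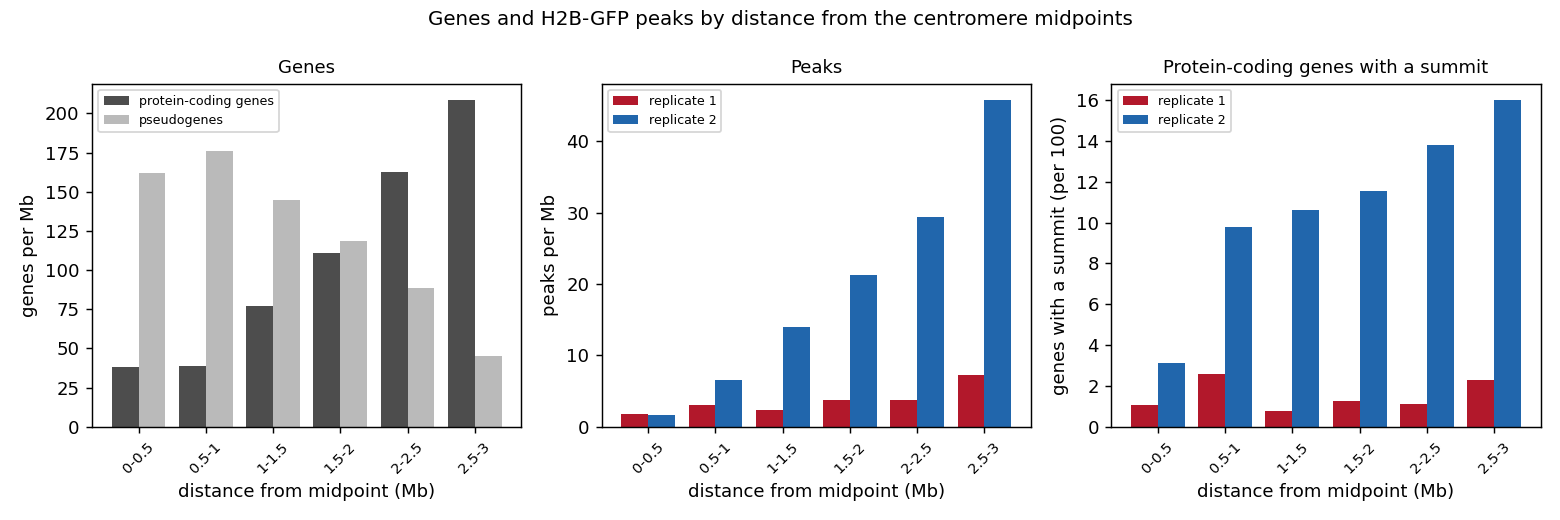
Steps of 0.5 Mb from the centromere midpoints to 3 Mb run along the x axes, all 5 chromosomes and both sides together. The panels give genes per Mb, H2B-GFP peaks per Mb, and protein-coding genes with a summit per 100 genes; in replicate 2 the last falls from 16.0 in the outermost to 3.13 in the innermost step.

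The replicate 2 peaks nearest to the 5 midpoints all had their summits in genes, with folds between 1.54 and 1.92. On chromosome 2 the closest replicate 2 peak stood 71.3 kb away (3670988 to 3671565, fold 1.66) under the pseudogene AT2G09800 and the overlapping non-coding gene AT2G09795. The closest on chromosome 4 (4074159 to 4074447, fold 1.54) lay in RAP2.9 (AT4G06746), an AP2-type transcription factor gene. On chromosome 5 it lay in AT5G30490 (11612207 to 11612568, fold 1.81), on chromosome 3 in AT3G33530 (14084950 to 14086420, fold 1.92) and on chromosome 1 in AT1G41880 (15652156 to 15652524, fold 1.71). None of these 5 overlapped a peak of replicate 1.

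In replicate 1 the closest peak on chromosome 2 was in AT2G09970 (3780082 to 3780625), with a fold of 1.84 and one of 1.87 in replicate 2. On chromosome 1 it was in NIA2 (AT1G37130), the gene of a nitrate reductase, where the folds were 1.70 and 2.22 (14158776 to 14159504 in replicate 1). The closest replicate 1 peaks on chromosomes 3, 4 and 5 all overlapped GBPL3-GFP peaks and are described with those.

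What lay under the summits was the next question. Summits were placed in a protein-coding gene, a non-coding RNA gene, a pseudogene, within 1 kb of a gene, or in intergenic space, in this order where a summit touched several. Around the centromeres 52 of 110 replicate 1 summits lay in protein-coding genes (47.3%, 38.2 to 56.5; 83.2% over all nuclear peaks of the list) and 470 of 593 in replicate 2 (79.3%, 75.8 to 82.3; 92.7% over all). The arms had 86.3% and 93.7%. Every other class was more frequent around the centromeres than in the arms in both lists. A test over 2 lists cannot show this: the exact permutation test within lists gave p = 0.5 for each of the 5 classes, the smallest it can give.

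Summits outside protein-coding genes were spread over 4 classes. Within 1 kb of a gene lay 24 in replicate 1 (21.8%; 8.82% over all nuclear peaks) and 64 in replicate 2 (10.8%; 3.90% over all). Pseudogenes had 12 (10.9%; 3.75% over all) and 26 (4.38%; 1.45% over all). Intergenic summits numbered 12 (10.9%; 2.94% over all) and 20 (3.37%; 1.17% over all). In non-coding RNA genes there were 10 (9.09%; 1.32% over all) and 13 (2.19%; 0.743% over all), and 7 of the 10 in replicate 1 belonged to peaks that overlapped GBPL3-GFP. Without the peaks over GBPL3-GFP, an alternative that was not planned, 3 of 94 replicate 1 summits lay in non-coding RNA genes (3.19%) and 51 of 94 in protein-coding genes (54.3%). When replicate 2 was limited to its 1361 strongest peaks by q, 91 of them were pericentromeric and protein-coding genes took 64.8% of the summits, pseudogenes 10.99% and intergenic space 6.59%.

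**Figure D3:**
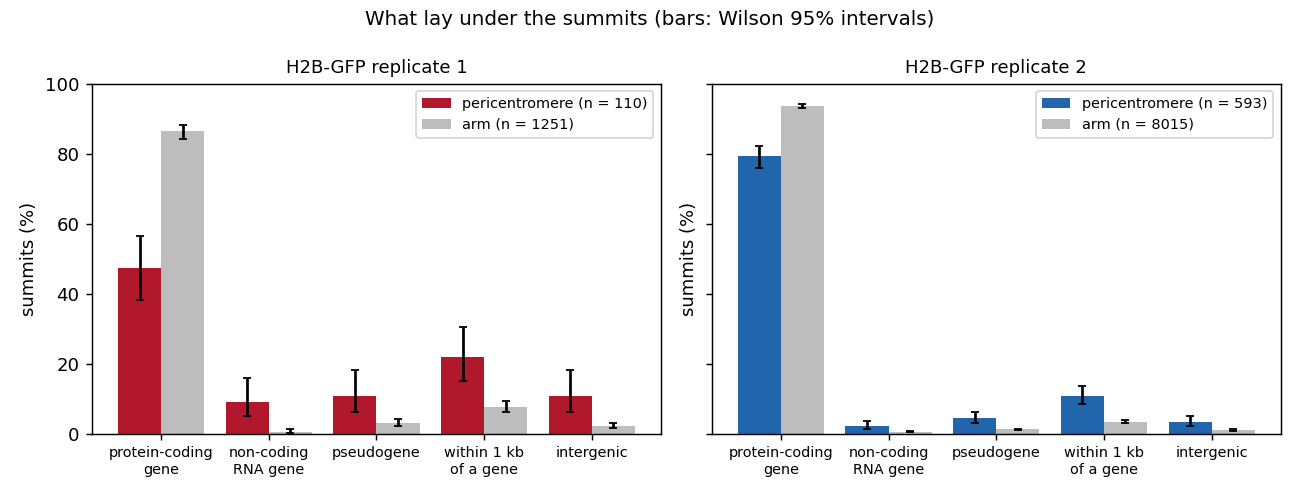
Bars give the percentage of summits in each of 5 classes, pericentromeric peaks in colour and arm peaks in grey, with Wilson 95% intervals, for each H2B-GFP list. In both lists the protein-coding bar is lower and the other 4 are higher around the centromeres than in the arms.

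Few pericentromeric pseudogenes held a summit, although most pseudogenes of the genome lie there. The gene table has 3678 pseudogenes within 3 Mb of the midpoints, 75.9% of all 4843, and 3181 protein-coding genes, 11.6% of 27432. Per Mb that is 122.6 pseudogenes against 13.1 in the arms, and 106 protein-coding genes against 272. Of the pericentromeric pseudogenes 13 held a replicate 1 summit (0.353 per 100; 1.01% over all pseudogenes) and 28 a replicate 2 summit (0.761 per 100; 2.73% over all), where the arms had 3.09 and 8.93 per 100. An arm pseudogene was thus under a summit 8.74 times as often in replicate 1 and 11.73 times in replicate 2.

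For protein-coding genes the gap was smaller. Summits were found in 50 of the 3181 in replicate 1 (1.57 per 100, 1.19 to 2.07; 3.95% over all genes) and in 409 in replicate 2 (12.9 per 100, 11.7 to 14.1; 24.6% over all). The arms had 4.26 and 26.2 per 100, 2.71 and 2.03 times as many. Genes with a summit were longer than the rest: their median length was 2745 bp in replicate 1 and 2626 bp in replicate 2, against 1743 bp for all 3181 genes. Gene length was not held constant in the rates per gene. In the arms the medians were 2664 and 2456 bp against 2112 bp for all genes. Summits stood in the first or last 25% of the gene in 25 of 52 and 214 of 470 cases (48.1% and 45.5%). The arms had 41.0% and 42.8%. The first and last 25% together are as long as the rest of the gene. The counts therefore show no excess of summits towards gene ends. Median distances from the nearer end were 589.5 and 620 bp around the centromeres and 703.5 and 643 bp in the arms. The table holds no strand, so starts and ends of genes could not be told apart.

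Agreement between the lists was judged by overlap of at least 1 bp. Of the replicate 1 peaks 59 of 110 met a replicate 2 peak (53.6%, 44.4 to 62.7; 62.3% over all nuclear peaks of the list), and of the replicate 2 peaks 58 of 593 met one of replicate 1 (9.78%, 7.64 to 12.4; 9.61% over all). In the arms the shares were 63.1% and 9.59%. The arm share of replicate 1 lies just above the interval of the pericentromeric peaks. Without the replicate 1 peaks that overlap GBPL3-GFP, an alternative that was not planned, the pericentromeric share was 57 of 94 (60.6%, 50.5 to 69.9). By chromosome the replicate 1 share ran from 6 of 21 on chromosome 3 to 14 of 21 on chromosome 2. Only 10 of the 21 on chromosome 3 did not overlap GBPL3-GFP, so its low share rests in part on the peaks that did. For the 51 replicate 1 peaks without a partner the nearest replicate 2 peak lay at a median of 2.01 kb, within 1 kb for 14 and within 5 kb for 34. Counted by gene, 37 of the 50 protein-coding genes with a replicate 1 summit also had a replicate 2 summit (74.0%, 60.4 to 84.1), against 790 of 1033 (76.5%) in the arms. The same 37 were 9.05% of the 409 with a replicate 2 summit, against 12.5% in the arms; over all genes 3.01% held a summit in both. For pseudogenes this was 7 of 13 around the centromeres and 30 of 36 in the arms, with 0.764% of all pseudogenes holding a summit in both lists.

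The overlapping peaks formed 58 regions with a median width of 822 bp, 51.5 kb in all: 18 on chromosome 4, 14 on chromosome 2, 11 on chromosome 1, 9 on chromosome 5 and 6 on chromosome 3. Their highest summits lay a median of 150.5 bp apart between the lists, and within 200 bp in 37 of the 58. The class under the summit was the same in 52, and 34 had the same gene. The fold was higher in replicate 1 in 29 and in replicate 2 in the other 29, and the order was weakly shared (Spearman 0.288, Pearson of log2 folds 0.397 over 58 regions, which come from the same pair of libraries). Each list's folds rest on its own background, so which list is higher in a region is a description with no test. In replicate 2 the peaks of these regions had a higher median fold than those of replicate 2 alone, 1.94 against 1.75, and 28 of 58 summits in protein-coding genes (48.3%) against 442 of 535 (82.6%). In replicate 1 the corresponding medians were 1.94 and 1.86, and the shares in protein-coding genes were 47.5% and 47.1%.

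**Figure D4:**
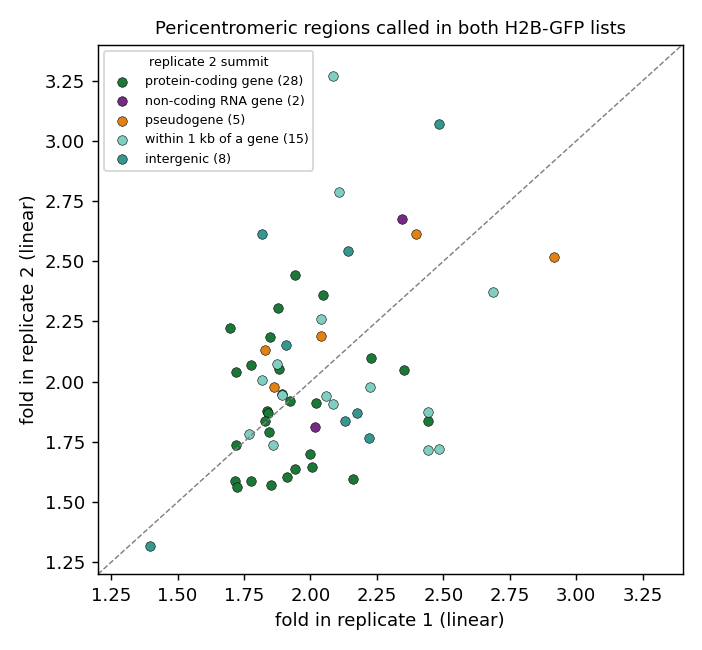
Each point is 1 of the 58 pericentromeric regions called in both H2B-GFP lists, with the authors' fold in replicate 1 (x axis, linear) and replicate 2 (y axis, linear), coloured by the class under the replicate 2 summit; the dashed line marks equal folds. The 9 points with the highest mean fold carry no protein-coding summit, and 28 of the 58 do.

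The strongest regions of both lists lay outside protein-coding genes. By the mean of the 2 folds, the first 9 of the 58 had their summits in intergenic space, within 1 kb of a gene, in a pseudogene or in a non-coding RNA gene. The first, on chromosome 5 (8769666 to 8770381), had folds of 2.49 and 3.07 in replicates 1 and 2, and its summits stood 3827 and 3811 bp from the nearest gene. The second covered the pseudogene AT5G28440 on chromosome 5 (10365828 to 10369100) with folds of 2.92 and 2.52. It had the highest pericentromeric fold of replicate 1 and the widest pericentromeric interval of each list, 1741 and 3273 bp. The highest pericentromeric fold of replicate 2 was 3.27, in a region on chromosome 1 (17267099 to 17268387) within 1 kb of RAP2.1 (AT1G46768). RAP2.1 is an AP2-type transcription factor gene, and replicate 1 had 2.09 there. Median folds of the arm peaks also differed by class. In replicate 1 they were 2.15 in pseudogenes, 2.04 in intergenic space and 1.98 within 1 kb of a gene. Protein-coding genes had 1.86 and non-coding RNA genes 1.84. In replicate 2 these arm medians were 1.84, 1.87, 1.82, 1.75 and 1.79.

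Several of the strong regions stood beside genes. A narrow region of 361 bp on chromosome 1 (17873881 to 17874241) lay 357 and 376 bp from YSL8 (AT1G48370), of the yellow stripe-like family of metal transporters, with folds of 2.69 and 2.37. At 1662 and 1711 bp from SOS2 (AT5G35410), the gene of a protein kinase of the salt response, an intergenic region (chromosome 5, 13632488 to 13633119) had folds of 1.82 and 2.61. Regions within 1 kb of AT4G05160 (chromosome 4, 2663487 to 2664580) and between AT5G36280 and AT5G36290 (chromosome 5, 14300862 to 14301492) reached 2.11 and 2.79, and 2.14 and 2.54. Near DGAT3 (AT1G48300), the gene of a diacylglycerol acyltransferase of lipid synthesis, the folds were 2.49 and 1.72 (chromosome 1, 17845982 to 17846649), above the median of the 110 in replicate 1 and below that of the 593 in replicate 2.

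Pseudogenes and non-coding RNA genes under regions of both lists were few. The long non-coding RNA gene AT2G04885 on chromosome 2 (1926685 to 1927541) had folds of 2.34 and 2.68 with summits 11 bp apart. At the pseudogene AT3G29805 on chromosome 3 (11726372 to 11727235) they were 2.40 and 2.61, at AT2G03990 on chromosome 2 (1265036 to 1265484) 2.04 and 2.19, and at AT4G08860 on chromosome 4 (5644479 to 5645093) 1.86 and 1.98. SADHU1-1 (AT2G10410), a Sadhu retroelement 407 kb from the midpoint of chromosome 2, had folds of 1.83 and 2.13 (4006133 to 4006992). At AT2G12460 (5047120 to 5048211, folds 1.77 and 1.78) and the long non-coding RNA gene AT1G07493 (chromosome 1, 17960773 to 17961803, folds 1.86 and 1.74) the replicate 1 summit was inside the gene and the replicate 2 summit beside it. The pseudogene AT2G11240 shared its summits with the protein-coding gene AT2G11225 (4477920 to 4479715, folds 1.72 and 2.04), so the peak cannot be given to one of them. AT3G29776 held a summit of each list (folds 1.86 and 2.12) whose intervals did not overlap.

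In protein-coding genes the folds of shared regions were lower. The highest were at EMB2770 (AT4G03430), the pre-mRNA splicing factor gene STA1, with 2.05 and 2.36 (chromosome 4, 1518742 to 1520301), and at genes without a symbol in the table. Those were AT2G10950 (chromosome 2, 4314346 to 4315140, 2.35 and 2.05), AT4G11430 (chromosome 4, 6953463 to 6954914, 1.94 and 2.44), AT2G14870 (chromosome 2, 6390859 to 6391577, 2.23 and 2.0998), AT2G11005 (chromosome 2, 4348607 to 4349068, 2.44 and 1.84) and AT1G36060 (chromosome 1, 13454588 to 13455796, 1.88 and 2.31). The fold was higher in replicate 1 at AT2G10950, AT2G14870 and AT2G11005, and higher in replicate 2 at the other three.

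Genes of known role in the other shared regions lay mostly on chromosome 4. SPT16 (AT4G10710) encodes a subunit of FACT, the chaperone that moves H2A-H2B dimers during transcription, and had folds of 2.02 and 1.91 (6604107 to 6605538). At the stress kinase gene MEKK1 (AT4G08500) they were 2.16 and 1.59 (5405169 to 5405924), with another replicate 2 peak of the gene at 1.89. The folds at UBQ14 (AT4G02890), a polyubiquitin gene, were 2.01 and 1.65 (1278656 to 1279683). The callose synthase gene GSL05 (AT4G03550) had 1.84 and 1.88 (1573377 to 1574547). KLCR1 (AT4G10840), a kinesin light chain-related gene, had 1.92 in both lists (6656610 to 6657913), though its summits stood 954 bp apart. At BSL1 (AT4G03080), a phosphatase gene of brassinosteroid signalling, the folds were 1.91 and 1.60 (1363573 to 1364184); another replicate 2 peak of the gene reached 1.95. On chromosome 3, ADT4 (AT3G44720), an arogenate dehydratase gene of phenylalanine synthesis, had 1.88 and 2.05 (16271841 to 16272840).

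A further group of named genes held a summit of each list without overlap of the intervals. They were MOS2 (AT1G33520, folds 1.80 and 1.72), the sucrose transporter gene SUT2 (AT2G02860, 2.13 and 1.62), the aconitase gene ACO3 (AT2G05710, 2.02 and 1.61), EID1 (AT4G02440, 1.70 and 1.44), which acts in far-red light signalling, the blue-light receptor gene CRY1 (AT4G08920, 1.69 and 1.76), TL29 (AT4G09010, 1.76 and 1.71) and EMB1691 (AT4G09980, 1.86 and 1.72). With these, 16 of the 37 protein-coding genes hit in both lists have a symbol of their own, as do 857 of the 3181 genes in the windows. Among the 535 replicate 2 peaks without a partner, the highest fold was 2.53, in CEF (AT3G44340, chromosome 3, 16018697 to 16019612). The widest over a protein-coding gene lay across AGO1 (AT1G48410), the main effector of RNA silencing by small RNAs (chromosome 1, 17890102 to 17892078, 1977 bp, fold 2.12). AGO1 is named after its values were seen, as is CEF.

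Gene families were looked up in the windows by gene type, name or locus tag. The insertion of mitochondrial DNA beside the centromere of chromosome 2 (locus tags AT2G07671 to AT2G07785, 112 genes and pseudogenes) held 0 summits in either list, which allows a share of up to 2.68%. None was found in 60 tRNA genes (up to 5%), 32 small nuclear and nucleolar RNA genes (up to 9.38%) or 13 defensin-like genes (up to 23.1%). The 5 ribosomal protein genes and 1 histone gene also had 0, too few for a limit of use. Each limit takes 3 counts and covers counting error only. In the windows all non-coding genes had 0.780 and 2.45 summits per 100 in replicates 1 and 2, all pseudogenes 0.353 and 0.761, and all protein-coding genes 1.57 and 12.9. The limits of the tRNA, small RNA and defensin-like genes lie above the rates of their gene types, so these zeros do not set them apart. The limit of the insertion lies above all of these rates except 12.9. Its gene types were not counted apart, so it cannot be set against a single rate. Of 6 genes that the table names as F-box or F box, 0 had a replicate 1 summit and 3 a replicate 2 summit. These were FBW2 (AT4G08980, fold 2.26), GRH1 (AT4G03190, fold 2.03), also known as the auxin receptor AFB1, and EBF2 (AT5G25350, fold 1.67), which acts in ethylene signalling. EID1, named above, also encodes an F-box protein but is not called so in the table. Of 9 Sadhu elements, 1 had a replicate 1 summit and 3 had a replicate 2 summit: SADHU1-1, SADHU2-1 (fold 1.75) and SADHU1-3 (fold 1.94). The SADHU2-1 summit also lay in the pseudogene AT1G35110, so that peak cannot be given to one of them. Among 2 rRNA genes, 1 had a replicate 1 summit and 0 a replicate 2 summit. Genes with a symbol of their own were hit in 22 (2.57%) and 186 (21.7%) of 857, where all protein-coding genes of the windows had 1.57 and 12.9 per 100 and those of the whole genome 3.95% and 24.6%.

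A small set of the pericentromeric replicate 1 peaks stood apart by their overlap with GBPL3-GFP. In replicate 1, 16 of the 110 pericentromeric peaks overlapped a GBPL3-GFP peak (14.5%; 1.62% over all nuclear peaks of the list), and each of the 16 met both GBPL3 lists. In replicate 2 it was 2 of 593 (0.337%; 0.105% over all). The 16 lay at 4 places, and all lay within 1 Mb of a midpoint, where replicate 1 had only 8 other peaks. Only 2 of the 16 were shared with replicate 2, against 57 of the other 94.

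In significance the 16 were split. Their −log10 q reached 41.2 with a median of 19.5, and the other 94 had a median of 2.17 and a highest value of 9.75. Between folds of 1.5 and 2.1, a range that was not planned, the 8 peaks over GBPL3 had −log10 q from 14.4 to 41.2. The 71 others had 1.31 to 3.50, so the sets did not overlap. Several of the 8 lay close together at the same place. A higher −log10 q at a like fold is not a higher enrichment, and the reads behind it are not known here. Arm peaks of replicate 1 reached a −log10 q of 20.5. With the AT4G06477 peak of fold 2.60, 9 of the 16 lay above each of the other 94 pericentromeric peaks. The remaining 7 had folds under 1.5 and −log10 q from 1.33 to 7.43, with a median of 2.15, inside the range of the others. No other pericentromeric replicate 1 peak had a fold under 1.5, so nothing of the same fold around the centromeres could be set beside them. The arms had 2 replicate 1 peaks and 166 replicate 2 peaks under 1.5, which were not compared here. In replicate 2, 1 of the 2 pericentromeric peaks over GBPL3 lay between folds of 1.5 and 2.1. It had a −log10 q of 22.2 at a fold of 1.81, where 529 others had a median of 2.42. The second had 5.38 at a fold of 1.32, and the 6 other pericentromeric peaks under 1.5 had 1.33 to 1.45. In the arms 4 replicate 1 peaks over GBPL3 in that fold range had −log10 q from 1.55 to 19.8, and the 1044 others reached 5.10. The 4 such arm peaks of replicate 2 had −log10 q from 1.62 to 5.44, with a median of 2.68, within the range of the 7180 others, whose median was 2.52 and highest value 7.19.

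**Figure D5:**
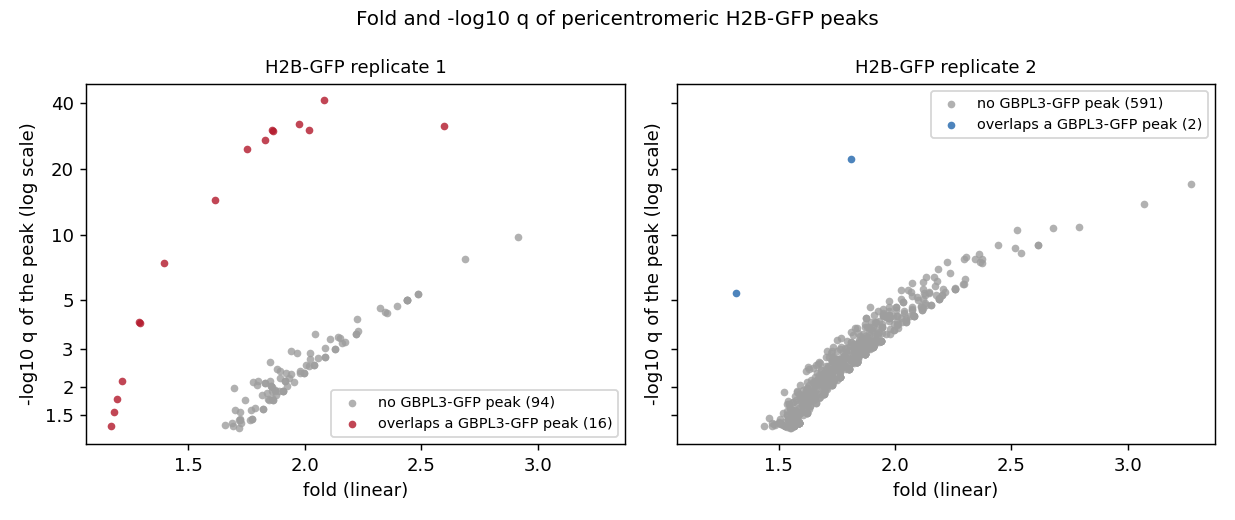
Each point is a pericentromeric H2B-GFP peak, with the authors' fold (x axis, linear) and −log10 q (y axis, log scale), for replicate 1 on the left and replicate 2 on the right. Of the peaks that overlap a GBPL3-GFP peak (16 and 2, coloured), 9 and 1 stand above all others (94 and 591, grey), and the remaining 7 and 1 have folds under 1.5 and −log10 q within the range of the others.

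At the ribosomal RNA genes of chromosome 3, 10 of the 16 lay between 14194666 and 14204017. In AT3G41768, annotated as an rRNA gene, replicate 1 had peaks of fold 1.86 (14198027 to 14198301, −log10 q 30.0) and 1.75 (14198877 to 14199132, 24.6), where the GBPL3 peaks had folds of 12.6 and 11.8 in GBPL3 replicate 1 and 8.05 and 7.59 in GBPL3 replicate 2. Over the non-coding gene AT3G06365 it had 4 more, with folds from 1.21 to 2.02. The last of these (14203718 to 14204017, fold 2.02, −log10 q 30.1) was the one found again in replicate 2 (14203722 to 14204008, fold 1.81), and its −log10 q of 22.2 was the highest of the 593. Of the peaks between 14195353 and 14202441, 5 had folds of only 1.17 to 1.29.

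Chromosome 5 had the peak of highest significance. Next to the pseudogene AT5G29550, 3 peaks of replicate 1 lay within 1.65 kb. The first (11184945 to 11185195) had a fold of 1.83, the middle one (11185570 to 11185862) a fold of 2.08 with the −log10 q of 41.2, and the third (11186186 to 11186592) a fold of 1.40. GBPL3 folds at the middle peak were 14.2 and 9.31. Only the third was met in replicate 2, with a fold of 1.32 (11186236 to 11186567), the lowest of that list's 593.

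On chromosome 4 a peak in the pseudogene AT4G06477 (3060935 to 3061193) had a fold of 2.60, the third highest of the 110, and a −log10 q of 31.4. Its GBPL3 folds were 10.3 and 9.02. A weaker one of fold 1.62 lay in intergenic space (3054453 to 3054918), and replicate 2 had neither. The last of the 4 places was intergenic, 109 kb from the midpoint of chromosome 3 (13590315 to 13590785), with a fold of 1.18 in replicate 1, no peak in replicate 2, and GBPL3 folds of 8.54 and 5.44.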

How the data were processed

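Peak lists of 4 GFP pulldown libraries (H2B-GFP and GBPL3-GFP, 2 replicates each) were used. The tools named are MACS2 2.1.0 and BWA 0.7.12 with the build TAIR10, per the submitters' processing notes; no source used here gives options, the control or the treatment of reads with several matches. Per the deposited values, each list holds for every summit a fold (a linear ratio over the background used in peak calling), a −log10 p and a −log10 q. It also holds a score, found to be the −log10 q times 10 without its decimals. Read depth is unknown.

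Lines with the same interval were joined, keeping the strongest summit by −log10 q, with the highest fold and q among the lines. Coordinates are the authors', counted from 1. Genes came from a RefSeq table of TAIR10.1 (37887 nuclear genes), from which no positions are printed; its build name differs from that of the files. Overlap was at least 1 bp. Python 3.11.15, pandas 2.3.3 and scipy 1.17.1 were used, and overlap and class assignment were tested on simulated data (7 of 7 checks recovered).

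The members and lists were chosen with earlier results of these data known. Named were genes and intervals of the strongest regions of both lists, the highest folds, those nearest to a midpoint, members of the gene lists hit in both, and overlaps with GBPL3-GFP. Alternatives changed the window, the q threshold, the overlap rule, the summit rule, the list length and the replicates. Leaving out the peaks over GBPL3-GFP and comparing −log10 q within a range of folds were not planned. The F-box list was widened to the spelling without a hyphen after the data were seen. A list of NLR resistance genes was planned, but the table names none in the words searched.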

Additional observations from a re-analysis of the deposited data

How the results depend on the processing

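Window, threshold and overlap rule moved several values. A total of 103 settings were tried. Of the 83 for main values, 47 stayed inside the 95% interval of the main value; of 20 region folds recomputed as a mean over summits, 18 moved by no more than the SD of the 2 lists. With windows of 2 Mb the share fell to 4.04% in replicate 1 and 2.52% in replicate 2, and with 1 Mb to 1.76% and 0.476%. A share cannot rise when the window shrinks, so these falls say nothing on stability, though they count among the 83. At a −log10 q of at least 3 it was 11.4% in replicate 1. Agreement with the other list was 27.3% and 5.06% with a reciprocal overlap of 50%, 6.91% in replicate 2 when its summit had to lie in a replicate 1 peak, and 28.2% and 33.0% when the longer list was limited to its 1361 strongest peaks. Summits in protein-coding genes came to 32.7%, 70.5% and 62.9% (replicate 1, replicate 2, both) within 2 Mb, and to 82.8% in replicate 2 and 77.8% in both by any gene under the interval. Over both lists the share in protein-coding genes was 74.3%, and 47.3% to 79.3% when leaving out 1 replicate; for pseudogenes it was 5.41% (4.38% to 10.9%) and for intergenic space 4.55% (3.37% to 10.9%). Within 2 Mb pseudogenes had 7.37% in replicate 2 and 9.19% in both, and intergenic space 6.99% in both. The strongest 1361 peaks of replicate 2, an alternative chosen after seeing the data, gave 64.8% for protein-coding genes, 10.99% for pseudogenes and 6.59% for intergenic space. Protein-coding genes with a summit at a −log10 q of at least 2 numbered 0.912 and 9.02 per 100 around the centromeres and 2.43 and 19.7 in the arms; within 2 Mb replicate 2 had 9.80 and 25.4, and by any overlap 26.7 in the arms. Median folds at a −log10 q of at least 2 were 2.01 and 1.85, and in replicate 2 the median was 1.74 with folds averaged over summits and 1.80 within 2 Mb. The causes were not tested. No paired analysis was possible because the lists hold called peaks and no value per library that could be fitted with a replicate block. Depth is unknown, and the lists differ in length, so a peak missing from a list is not shown to be absent.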

Other observations

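Spacing and ties of the pericentromeric peaks belong to no comparison above. Neighbouring peaks lay a median of 89.1 kb apart in replicate 1 and 14.3 kb in replicate 2, and the widest gap between neighbours was 2232 kb and 1627 kb. Many folds were exactly tied within a list: 31 of 110 peaks in replicate 1 and 257 of 593 in replicate 2 shared their fold with another member. The value 2.44 occurred 4 times in replicate 1, and 1.59 occurred 10 times in replicate 2. Ranks among tied peaks therefore carry no order.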
